A study of Equus caballus with 25 samples.

Results

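CXCL6, CXCL8, CXCL9, CXCL10, CCL2 and CCL5 are genes for chemokines, small secreted proteins that draw white blood cells into tissue. All probes on the array whose transcript belongs to one of these 6 horse genes were taken, which gave 22 of the 43603 probes. They comprised 1 probe of CXCL6, 6 of CXCL8, 2 of CXCL9, 5 of CXCL10, 6 of CCL2 and 2 of CCL5. Their messenger RNA was measured with one-colour Agilent arrays in the endometrium, the inner lining of the uterus, of 5 normally cycling Bavarian Warmblood mares. Each mare gave 1 biopsy per day, mostly from separate cycles, so there were 25 arrays in 5 groups of 5. Day 0 was the day of ovulation and belongs to the ovulatory phase. Days 3, 8 and 12 lie in the early, mid and late luteal phase, the time of high progesterone from the corpus luteum, and day 16 is the start of the next ovulatory phase. No animal was treated, and the labels used here give no age and no measure of infection or inflammation.

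Chemokines bind receptors on leukocytes and steer them along a concentration gradient. CXCL6 and CXCL8 act on neutrophils through CXCR1 and CXCR2. CXCL9 and CXCL10 are induced by interferons and attract activated T cells and NK cells through CXCR3. CCL2 attracts monocytes through CCR2, and CCL5 attracts T cells, monocytes and eosinophils through several receptors. The endometrium of the mare takes up many neutrophils after mating or insemination, and its stromal and epithelial cells are known sources of chemokines. In the RefSeq gene table of the horse, CXCL6 lies next to CXCL8 and CXCL9 next to CXCL10, with 0 protein-coding genes between the members of each pair, and CCL2 and CCL5 share another chromosome with 26 such genes between them.

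Levels are log2 signals relative to the 75th percentile of the array, so 0 is the signal at that percentile. They were compared between days for the same probe and not between probes, since each probe has its own brightness. A gene is represented by its brightest tested probe unless other probes are named, and values of single arrays run from mare 1 to mare 5. The 75th percentile ranged from 698 to 3701 signal units over the arrays and was lowest at day 0, with a median of 895. The share of spots well above background ranged from 70.3% to 88.1%, and 0 spots were saturated. Tests were run on probes with a signal well above background in at least 4 of the 5 mares on some day. This held for 35770 probes in all and for 17 of the 22 chemokine probes, and the other 5 were dim probes of CXCL8. Differences are the first day named minus the second, from limma's moderated test with Benjamini-Hochberg adjustment over the 35770 probes, and an adjusted p under 0.05 is called a change. Biopsies mix cell types, so fewer cells of a type and less RNA per cell cannot be told apart.

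By their brightest tested probes, all 6 genes differed over the 5 days. By the F test of limma the adjusted p was 3.45e-05 for CXCL10, 5.67e-04 for CCL2, 6.72e-04 for CXCL8, 0.00112 for CXCL6, 0.00547 for CCL5 and 0.0199 for CXCL9. The second probes of CXCL9 and CCL5 did not pass, with adjusted p-values of 0.202 and 0.121 by the same F test. Over the whole array 35.8% of tested probes passed this test. The 6 genes did not follow a single course. The 4 CXC genes had their highest day mean at ovulation and CCL2 had its highest at day 16. CCL5 also had its highest at ovulation, but narrowly, at -0.68 against -0.74 at day 12, and its lowest at day 8. The day means of CCL2 and CXCL10 spanned 2.17 and 2.15 log2 units, wider than in 94.5% and 94.4% of tested probes, those of CXCL9 spanned 1.51 (85.9%) and those of CCL5 spanned 1.03 (65.5%). The median range of all tested probes was 0.83. No range is given for CXCL6 and CXCL8, whose lowest days lay at or near background.

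**Figure D1:**
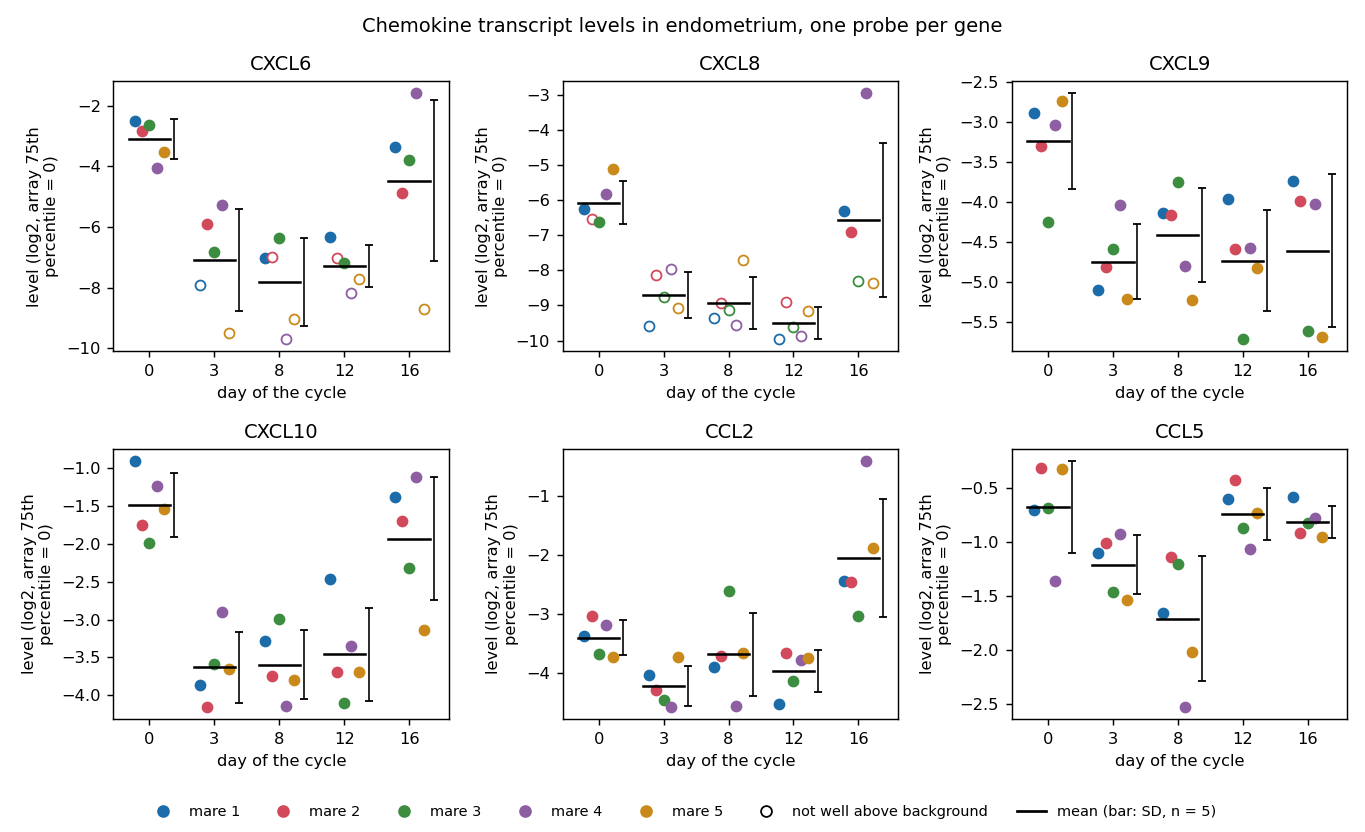
Level of the brightest tested probe of each chemokine gene (y axis, log2 relative to the 75th percentile of the array, a separate scale per gene) by day of the cycle (x axis). Points are the 5 mares, open where the spot was not well above background, with the mean as a line and the SD as a bar. CXCL6, CXCL8 and CXCL10 stand high at days 0 and 16, CCL2 stands high at day 16 in all 5 mares, and CCL5 dips at day 8.

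Among the neutrophil attractants, CXCL6 was clearly measured at ovulation and near the detection limit through the luteal phase. At day 0 its levels were -2.50, -2.83, -2.64, -4.05 and -3.52. They were -7.90, -5.91, -6.81, -5.28 and -9.50 at day 3, where 3 of 5 arrays were well above background. At days 8 and 12 only 2 of 5 arrays each were, with levels from -9.69 to -6.36 and from -8.18 to -6.34. Every luteal array thus lay below every array of day 0. At day 16 the levels were -3.37, -4.87, -3.80, -1.59 and -8.70, high in mares 1 to 4 and at background in mare 5. The probe qualified for testing through days 0 and 16 and through no luteal day, which favours calls of these days against luteal days.

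CXCL6 fell by 3.98 ± 0.95 on the log2 scale at day 3 against day 0 (SE, adjusted p = 0.0084 by limma, lower in 5 of 5 mares). Against day 0 it also fell by 4.71 at day 8 and by 4.18 at day 12, with adjusted p-values of 9.47e-04 and 0.00312 by limma. On each of these 3 days some arrays were at background, so the sizes rest in part on values near the detection limit. Day 16 against day 12 gave a difference of 2.82 ± 0.95 (SE) with an adjusted p of 0.0713, and 4 of 5 mares were higher. With the mare as a block in limma, the adjusted p was 0.0315 for this difference and 0.0332 for day 16 against day 3, which had missed the threshold at 0.0695. Without the day 16 array of mare 5 the difference from day 12 was 3.87 with an adjusted p of 0.00216, and without that array or the day 3 array of mare 4 the difference from day 3 passed as well, at up to 3.67. Day 16 against day 8 passed, at 3.35 (adjusted p = 0.0180), but missed the threshold without the day 16 or the day 8 array of mare 4, where the adjusted p reached at most 0.0634. With mare and slide together in the model, CXCL6 missed the threshold at day 3 and day 8 against day 0 (adjusted p = 0.0839 and 0.0535) and at day 16 against day 8 (adjusted p = 0.0629). Days 0 and 16, and neighbouring luteal days, did not differ beyond their spread.

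CXCL8, the chemokine also called interleukin 8, was detected at days 0 and 16 alone by its tested probe. At day 0 the levels were -6.26, -6.53, -6.62, -5.84 and -5.13, of which the value of mare 2 was not well above background. The probe qualified for testing through this day alone, which favours a call against day 0. The tested probe was well above background on 0 of the 15 arrays of days 3, 8 and 12, where the levels lay between -9.95 and -7.69 and have no order among themselves. At day 16 they were -6.30, -6.92, -8.30, -2.96 and -8.36, well above background in mares 1, 2 and 4. Mare 4 alone exceeded every array of day 0.

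Because the tested probe was at background on the luteal days, the folds of CXCL8 are bounds. They were computed against the lowest signal well above background on the same array. The means of days 0 and 16 include arrays not well above background, mare 2 at day 0 and mares 3 and 5 at day 16. These entered at their own signal, so the bounds are approximate. CXCL8 was at least 2.43-fold lower at day 3 than at day 0 (adjusted p = 0.0133 by limma), at least 2.15-fold lower at day 8 (adjusted p = 0.00355) and at least 2.82-fold lower at day 12 (adjusted p = 8.82e-04). At day 16 it was at least 2.01-fold higher than at day 12 (adjusted p = 0.00713), at least 1.73-fold higher than at day 3 (adjusted p = 0.0354) and at least 1.53-fold higher than at day 8 (adjusted p = 0.0188). The rise at day 16 against day 3 missed the threshold, with an adjusted p of up to 0.0915, without the day 3 array of mare 1, 3 or 5 or the day 16 array of mare 1 or 4. The bounds at day 16 rest on mare 4, since without its array the bound was at least 1.07-fold against day 12 and none remained against days 3 and 8. Without any one array of day 0 the bounds were at least 2.06-fold against day 3, at least 1.82-fold against day 8 and at least 2.40-fold against day 12. In the fit over all 43603 probes with no filter, the same 6 comparisons of CXCL8 passed, with adjusted p-values from 0.0012 to 0.0449 by limma. With mare and slide together in the model, the rise at day 16 against day 12 alone passed, and the other 5 had adjusted p-values from 0.058 to 0.179. The fit with no filter keeps the scaling to the 75th percentile. The median of that percentile was lowest at day 0, so equal background signals tend to stand higher there. The dimmest probe of CXCL8, well above background on 0 of 5 arrays at days 0 and 3, averaged -7.64 and -9.35. The part of this in the calls against day 0 was not tested. Within the slide that held mare 5 at both days, day 16 lay below day 8, both at background. The other 5 probes of CXCL8 were well above background on 1 to 8 of the 25 arrays and were not tested. Each had its highest day mean at day 0 or day 16. These means come in large part from values at background, for 1 probe from 0 of 5 arrays well above it at its highest day. All 6 probes of CXCL8 were brightest on the day 16 array of mare 4. The tested probe had 5 spots per array, whose median SD was 0.24 (log2).

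With normexp background correction, which raises every dim signal by an offset of 50, differences of both genes shrank. That of CXCL6 at day 3 against day 0 was -2.03 and still passed (adjusted p = 0.00182), while CXCL8 at day 16 no longer passed against days 3, 8 or 12, with adjusted p-values of 0.235, 0.432 and 0.261 by limma. The whole array shifted too with normexp at day 3 against day 0. Of 35770 tested probes 6377 were called lower, against 2024 in the main fit. The median of all probes was -0.29, against -0.11.

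The interferon-induced chemokines were measured on all 25 arrays by their brightest probes. CXCL10 levels were -0.90, -1.75, -1.99, -1.23 and -1.53 at day 0. They were -3.87, -4.16, -3.58, -2.90 and -3.65 at day 3, all below every array of day 0. The luteal plateau continued with -3.29, -3.75, -3.0, -4.14 and -3.80 at day 8 and -2.47, -3.70, -4.10, -3.35 and -3.69 at day 12. At day 16 the levels of -1.38, -1.70, -2.32, -1.12 and -3.14 were back in the range of day 0 in mares 1, 2 and 4, while mare 5 remained among the luteal values.

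CXCL10 fell by 2.15 ± 0.35 at day 3 against day 0 (log2, SE, adjusted p = 6.38e-04 by limma), a 4.44-fold difference. The luteal days 8 and 12 were lower than day 0 by similar amounts, with differences of -2.11 and -1.98. At day 16 it was 2.89-fold higher than at day 12 (1.53 ± 0.35, SE, adjusted p = 0.00693), higher in 5 of 5 mares by 0.55 to 2.23. Without mare 2 altogether that adjusted p was 0.0763. Day 0 minus day 16 was 0.45, with a 95% interval from -0.28 to 1.17. All 5 probes passed the F test and the falls at days 3, 8 and 12 against day 0, and 3 of 5 passed at day 16 against day 12. The falls at days 3, 8 and 12 and the rises at day 16 against days 3 and 8 kept their calls without any single array and without any single mare.

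CXCL9 had its highest day at ovulation too, with levels of -2.89, -3.31, -4.25, -3.04 and -2.74. Day 3 gave -5.11, -4.81, -4.59, -4.04 and -5.21, which overlapped day 0 through mare 3 at ovulation. Days 8 and 12 ranged from -5.23 to -3.75 and from -5.72 to -3.97. At day 16 the levels were -3.74, -3.99, -5.62, -4.03 and -5.70, within 0.87 of day 12 in every mare.

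CXCL9 fell by 1.51 ± 0.41 at day 3 against day 0 (log2, SE, adjusted p = 0.0176 by limma), a 2.84-fold difference, and was lower than at ovulation by 1.17 at day 8 and by 1.49 at day 12 (adjusted p = 0.0406 and 0.0117). Day 16 minus day 12 was 0.12, with a 95% interval from -0.72 to 0.96, whereas the same interval of CXCL10 ran from 0.81 to 2.26. The difference between these genes was not tested. Day 0 minus day 16 was 1.37, higher at ovulation in 5 of 5 mares, with an adjusted p of 0.0529, and of 0.0298 with the mare as a block in limma. The second probe of CXCL9 moved alike, by -1.54 at day 3 against day 0, but was dimmer and more variable and did not pass (adjusted p = 0.143). The fall at day 3 missed the threshold, with an adjusted p of at most 0.0511, without the day 3 array of mare 1 or of mare 5, and that at day 8, with an adjusted p of up to 0.114, without the day 0 or day 8 array of mare 1, 2, 4 or 5. In the model with mare and slide together, the falls at days 3 and 8 did not pass (adjusted p = 0.0566 and 0.140) and that at day 12 did. The difference between days 0 and 16 passed, with an adjusted p down to 0.0194, without the array of mare 3 at day 0 or 12, of mare 4 at day 3 or of mare 1 at day 16.

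**Figure D2:**
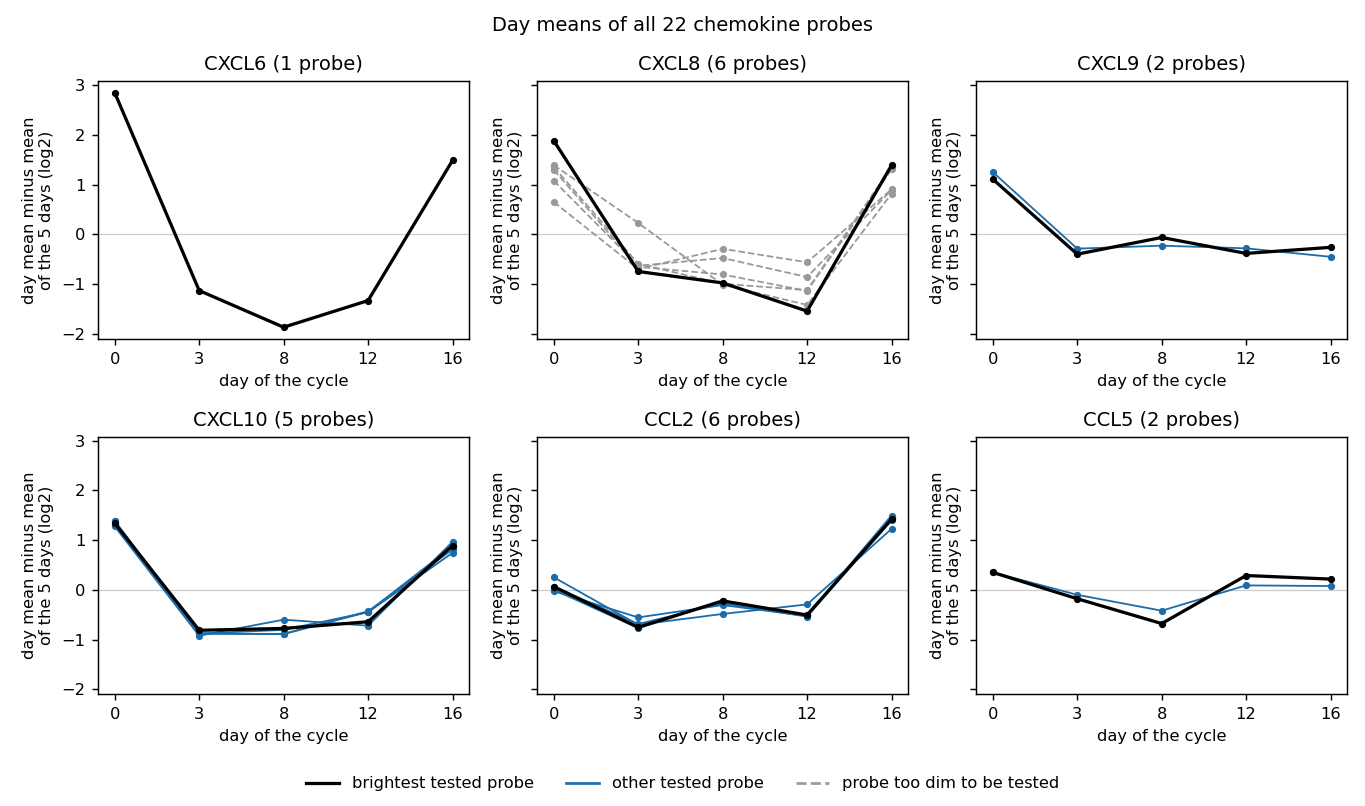
Day means of all 22 chemokine probes (y axis, log2, each probe minus its own mean over the 5 days) by day of the cycle (x axis), with the brightest tested probe in black, other tested probes in blue and probes too dim to test dashed in grey. The 5 probes of CXCL10 and the 6 of CCL2 run almost on top of each other, and the day 8 dip of CCL5 is deeper in its brightest probe.

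CCL2 differed from the CXC genes in when it was high. Its levels at day 0 were -3.36, -3.03, -3.67, -3.18 and -3.72, and at day 3 they were -4.03, -4.29, -4.45, -4.57 and -3.72. At day 8 they were -3.89, -3.70, -2.60, -4.55 and -3.66, and at day 12 -4.51, -3.65, -4.13, -3.78 and -3.73. At day 16 they reached -2.44, -2.46, -3.02, -0.41 and -1.88. Each of these exceeded every array of days 3 and 12 and, narrowly, of day 0, while mare 3 at day 8 overlapped them.

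CCL2 rose 3.79-fold at day 16 against day 12 (1.92 ± 0.37 on the log2 scale, SE, adjusted p = 0.00162 by limma), higher in 5 of 5 mares by 1.11 to 3.37. It was also higher at day 16 than at day 3 by 2.17 and than at day 8 by 1.64 (adjusted p = 3.89e-04 and 0.00349 by limma). All 6 probes passed in these 3 comparisons, and none of the calls was lost without a single array or a single mare. Within slide 3, which held mare 3 at both days, day 16 was below day 8. At day 0 CCL2 was 1.35 lower than at day 16 (adjusted p = 0.0344, lower in 5 of 5 mares), and 4 of 6 probes passed. That call was lost without the day 0 array of mare 1, 2, 3 or 5 or the day 16 array of mare 4 or 5, with a difference of -0.94 without mare 4 at day 16 and an adjusted p of up to 0.0968. It was also lost when each array's log2 75th percentile entered the model (-1.02, adjusted p = 0.541). With mare and slide together in the model, day 0 against day 16 (adjusted p = 0.157) and day 16 against day 8 (adjusted p = 0.0821) did not pass. The fall at day 3 against day 0, by 0.82, did not pass (adjusted p = 0.145).

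CCL5 had the narrowest range of the 6 genes. Its levels were -0.70, -0.32, -0.69, -1.36 and -0.32 at day 0 and -1.10, -1.01, -1.47, -0.93 and -1.54 at day 3. They were lowest at day 8, at -1.66, -1.14, -1.21, -2.53 and -2.01. At day 12 the levels were -0.61, -0.43, -0.88, -1.07 and -0.73, all above every array of day 8, and at day 16 they were -0.58, -0.92, -0.83, -0.78 and -0.96.

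CCL5 was 2.04-fold lower at day 8 than at day 0 (-1.03 ± 0.24, SE, adjusted p = 0.00283 by limma), and both probes passed. It was 1.95-fold higher at day 12 than at day 8 (0.97 ± 0.24, SE, adjusted p = 0.0448), higher in 5 of 5 mares, and 1.86-fold higher at day 16 than at day 8 (0.89, adjusted p = 0.0115). The rise at day 12 passed in 1 of 2 probes and lay just inside the threshold. It missed it, with an adjusted p of up to 0.126, without any array of day 12, the day 8 array of mare 1, 3, 4 or 5, the day 0 array of mare 3, or the day 3 or day 16 array of mare 2 or 3. Without any one of the 5 mares it missed it too, with adjusted p-values from 0.0752 to 0.280. The rise at day 16 against day 8 also passed in 1 of 2 probes, with a difference of 0.50 in the other. That rise kept its call without any single array. Without mare 1 or mare 5 altogether it missed the threshold, with an adjusted p of up to 0.0563 by limma. When mare and slide were both in the model, neither the fall at day 8 against day 0 (adjusted p = 0.105) nor the rise at day 12 (adjusted p = 0.179) passed. The difference of -0.53 at day 3 against day 0 did not pass (adjusted p = 0.141), but passed without the day 0 array of mare 4, at -0.70 (adjusted p = 0.0444). Days 12 and 16 differed by -0.07, with a 95% interval from -0.56 to 0.41.

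**Figure D3:**
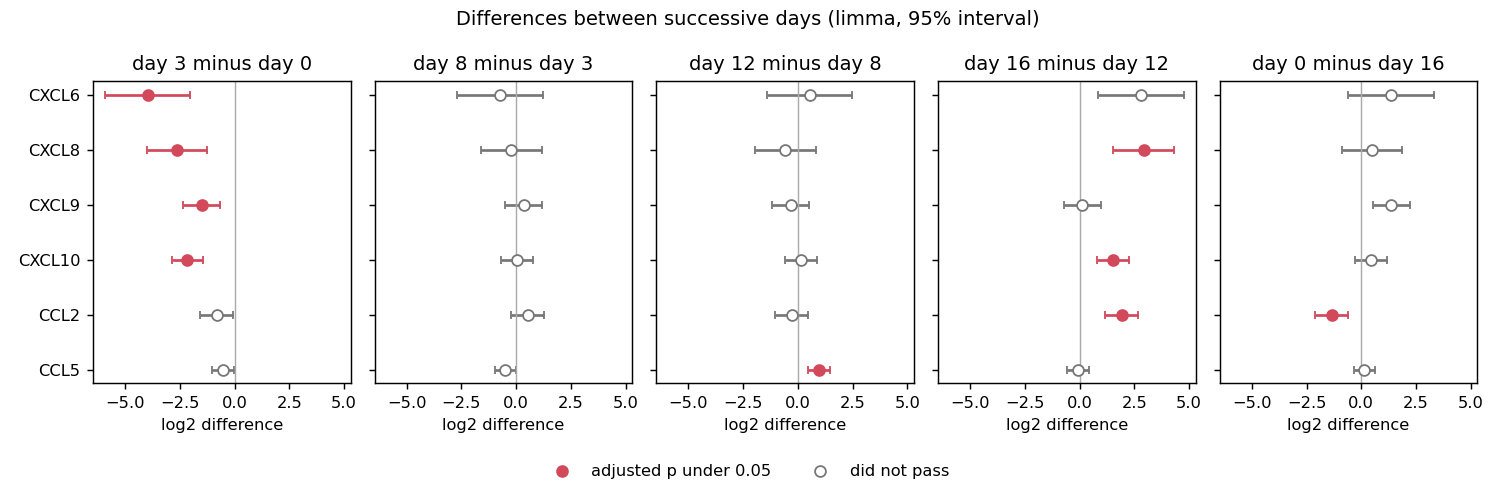
Log2 differences (x axis, first day minus second) of the brightest tested probe of each chemokine gene (rows) for the 5 steps round the cycle, with 95% intervals from limma. Filled red points passed an adjusted p under 0.05. CXCL6, CXCL8, CXCL9 and CXCL10 fell at day 3, and CXCL8, CXCL10 and CCL2 rose at day 16. The points of CXCL8 at those steps are set against days at background, so their sizes are not exact.

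Step by step round the cycle, 4 of the 6 genes fell at day 3 against day 0 and 0 rose, where 12.7% of all tested probes were called and 5.66% were lower. None changed at day 8 against day 3, where 13.8% of tested probes were called, and at an unadjusted p under 0.05 the brightest probe of CCL5 alone passed. CCL5 was the single gene that rose at day 12 against day 8, with 1.1% of probes called and 0.626% higher. At day 16 against day 12, 3 genes rose and 0 fell, against 8.07% of probes called and 3.86% higher. For day 0 against day 16, 1 gene was lower at day 0, CCL2, with 4.71% of probes called and 2.41% lower. In the remaining pairs, 5 genes were lower at day 8 than at day 0 (21.9% of probes called, 11.4% lower), 4 were lower at day 12 than at day 0 (17.9% called, 8.53% lower), and 0 passed at day 12 against day 3 (17.9%), also at an unadjusted p under 0.05. At day 16, 3 genes were higher than at day 3 (13.8% called, 6.89% higher) and 5 were higher than at day 8 (15.0% called, 7.91% higher). Among the comparisons with day 8, CCL2 at day 0 and CXCL9 at day 16 were the exceptions. For the brightest probes of the 6 genes the median difference was -1.83 at day 3 against day 0 and 1.73 at day 16 against day 12. Over all tested probes the medians were -0.11 and -0.07. These medians are a description, in which each of the 6 genes counts once. CXCL8, tested through day 0 alone, is in the counts of day 0 against the luteal days, which without it were 3 at day 3, 4 at day 8 and 3 at day 12. CXCL6, tested through days 0 and 16 and no luteal day, is still in those counts and in that of day 16 against day 8. The comparisons share arrays, so these counts are not independent.

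The arrays lay on 7 slides of 3 or 4. Each called difference of the brightest probes was also computed within each slide that held both days. For day 3 against day 0, the 3 such slides all gave the pooled direction, from -5.99 to -1.23 for CXCL6, in part against arrays at background, -2.48 to -1.0 for CXCL9 and -2.68 to -1.67 for CXCL10. For day 16 against day 12 the 3 slides gave 1.09 to 2.23 for CXCL10 and 1.11 to 3.37 for CCL2. CXCL8 kept the pooled direction on these slides, against days at background for which sizes are not given. CCL5 at day 12 against day 8 ranged from 0.33 to 1.05 within 3 slides. Of the other called differences, CXCL8 and CCL2 at day 16 against day 8 turned in 1 of 4 slides each, at -0.67 and -0.42, and all others kept their direction. With mare and slide together in the model, 14 of the 26 calls were lost, as given with each gene, and the 5 pairs of days other than neighbouring ones kept 8 of 17. All 3 rises at day 16 against day 12 passed in that model, and CXCL6 passed beside them. CXCL10 lost none of its calls.

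By the brightest tested probes, mares differed most at day 16 for 5 of the 6 genes, all but CCL5. The SD between mares at day 16 was 2.64 for CXCL6, 2.20 for CXCL8, 0.999 for CCL2, 0.96 for CXCL9 and 0.81 for CXCL10, against a median of 0.51 over all tested probes. On the other days the SD was at most 1.67 for CXCL6, 0.73 for CXCL8, 0.70 for CCL2, 0.63 for CXCL9 and 0.62 for CXCL10. The median over all tested probes was also highest at day 16, against 0.29 to 0.45 on the other days. At day 16 CXCL6 was well above background on 4 of 5 arrays and CXCL8 on 3 of 5. The SDs of these genes thus mix measured values with background. The brightest probe of CCL5 had its lowest SD at day 16, at 0.15, against 0.24 to 0.58 on the other days. The second probe of CCL5 went the other way. Its SD was highest at day 16, at 0.48, against 0.18 to 0.46 on the other days. Mare 4 had the highest level of CXCL6, CXCL8, CXCL10 and CCL2 on that day. Mare 5 had the lowest of CXCL6, CXCL8, CXCL9 and CXCL10 but the second highest of CCL2. From day 12 to day 16 within each mare, CXCL6 changed by 2.97, 2.14, 3.37, 6.59 and -0.99, and CXCL10 by 1.09, 2.0, 1.79, 2.23 and 0.55. The array of mare 4 at day 16 was also the brightest of the series, with a 75th percentile of 3701, and the part of this in the result was not tested.

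**Figure D4:**
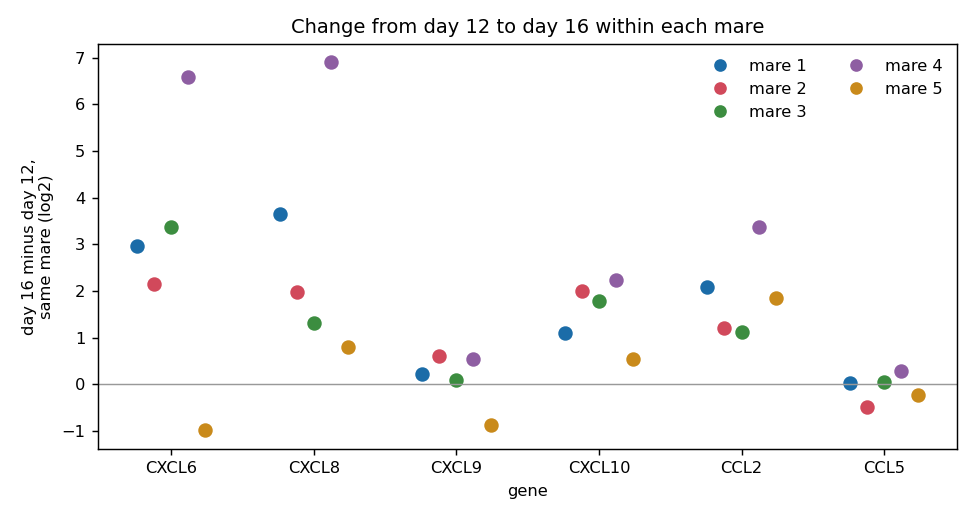
Difference between day 16 and day 12 of the same mare (y axis, log2) for each chemokine gene (x axis), 1 point per mare. CCL2, CXCL10 and CXCL8 lie above 0 in all 5 mares, mare 4 is highest for CXCL6, CXCL8, CXCL10 and CCL2, and mare 5 is lowest for CXCL6, CXCL8, CXCL9 and CXCL10.

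Over the 25 arrays, the levels of CXCL6 and CXCL10 correlated at r = 0.87, CXCL8 and CXCL10 at 0.81, and CXCL6 and CXCL8 at 0.80, and the lowest of the 15 pairs was CXCL9 with CCL2 at 0.13. After the day means were removed, the highest value was that of the neighbouring genes CXCL9 and CXCL10, at 0.84, and that of CXCL6 and CXCL8 was 0.52. CXCL8 was well above background on 7 of the 25 arrays and CXCL6 on 16, so their correlations are in large part between measured days and background. These values are descriptions. The arrays share mares, slides and day groups, and each mare contributes 5 of them.

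**Figure D5:**
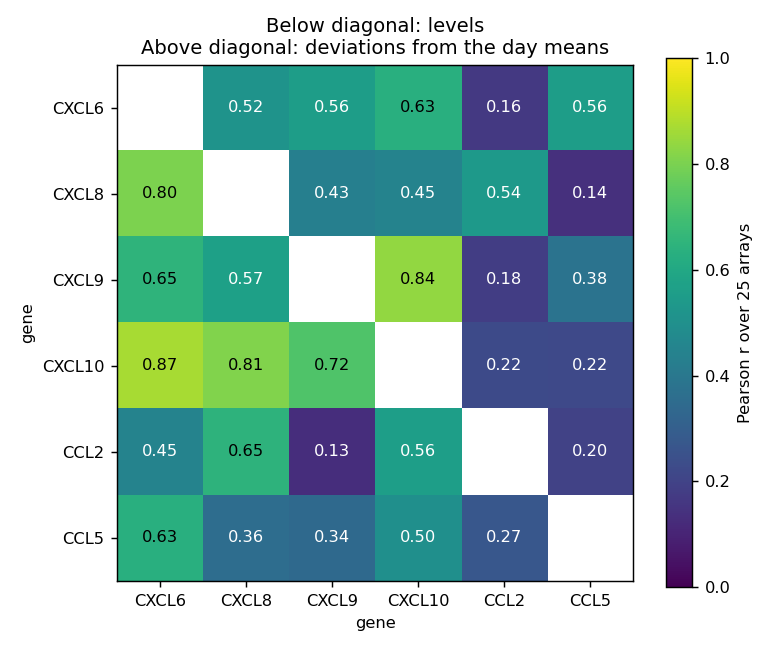
Pearson r between the brightest tested probes of the 6 chemokine genes (rows and columns) over 25 arrays, for levels below the diagonal and for deviations from the day means above it. CXCL6 with CXCL10 is highest for levels (0.87) and CXCL9 with CXCL10 for deviations (0.84).

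Of 508 other named genes, the 3 whose levels most resembled each chemokine over the 25 arrays were found by Pearson's r. For CXCL6 they were the small proteoglycans DCN (0.86) and LUM (0.85) and the matrix protein SPARC (0.80). For CXCL8 they were RND3 (0.84), CASP1 (0.79), the protease that matures interleukin 1 beta, and MMP3 (0.78), and for CXCL10 they were MMP3 (0.88), RND3 (0.82) and ANGPTL2 (0.82). MMP3, a matrix protease, averaged -3.47 at ovulation, between -9.30 and -8.50 on the 3 luteal days, and -5.04 at day 16. CXCL9 was most like SERPINF1 (0.72), TLR8 (0.71) and LUM (0.68). The genes most like CCL2 included IL1RN (0.81) and TIMP1 (0.80), and CCL5 was most like FTL (0.82), GNLY (0.79) and IL23A (0.76). With the day means removed, r fell to 0.23 for CXCL8 with MMP3 and to 0.30 for CXCL10 with ANGPTL2, and was 0.77 for CXCL6 with LUM and 0.74 for CCL2 with IL1RN.

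Other chemokines were named for 4 of 33 listed genes, CCL3, CCL8, CCL11 and CCL16, all tested. CCL8, a monocyte attractant related to CCL2, passed the F test (adjusted p = 0.0396 by limma) and was higher at day 16 than at day 3 by 1.08 and than at day 8 by 1.19 (adjusted p = 0.0382 and 0.0214). Its levels at day 16 were 0.44, -0.56, -0.30, 1.65 and 1.14, highest in mares 4 and 5. CCL3, CCL11 and CCL16 passed in no comparison. Of 23 receptors, CCR2, which binds CCL2, was tested and did not pass the F test (adjusted p = 0.773). CCR2 was dim, well above background on 1, 3, 3, 4 and 4 of 5 arrays at days 0, 3, 8, 12 and 16. CXCR1, CXCR2 and CXCR3 had no named probe and were not analysed here.

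Of 28 interferons and interferon-stimulated genes, 8 were tested. At day 16 against day 8, 4 rose, among them OAS2, an antiviral enzyme, by 1.47, MX1 by 1.08 and B2M, the light chain of MHC class I, by 1.06. At day 16 against day 12, B2M rose by 0.72 (adjusted p = 0.0217 by limma), and the median of the 8 genes was 0.65. At day 3 against day 0 B2M fell by 0.94 (adjusted p = 0.00351), and the median was -0.43, against -0.11 over all tested probes. IFNG, which encodes interferon gamma, passed in no comparison. It was well above background on 1, 0, 1, 2 and 4 of 5 arrays at days 0, 3, 8, 12 and 16. Its differences thus rest largely on signal near background. The list's summed level ranged from 4.98 to 5.93 at day 8, from 5.54 to 6.16 at day 12 and from 6.22 to 6.80 at day 16. Summed levels add signals before the log2 is taken, so the brightest gene weighs most, here B2M.

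Among 27 cytokines, sensors and NF-kB genes, 13 were tested. IL1RN, the interleukin 1 receptor antagonist, rose at day 16 against day 3 by 3.27 (adjusted p = 0.0316 by limma), in all 9 of its probes. By mare it was 0.23, 1.35, 1.39, 9.18 and 4.21, largest in mares 4 and 5. IL1RN at day 16 was -2.10, -1.95 and -1.92 in mares 1 to 3 but 6.08 in mare 4 and 2.29 in mare 5, the mares with the highest CCL2. IL1R1, the signalling receptor, rose by 1.57 in the same comparison, and IL1R2, a decoy receptor, rose at day 16 against day 12 by 2.16 (adjusted p = 0.0453), with 5 of 5 arrays well above background at day 16 and 1 of 5 at day 12, so that size is not exact. TNF passed in no comparison, and IL18 fell by 0.97 at day 12 against day 0.

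Markers of other cell types were covered in part. Of 19 neutrophil markers MMP9 alone was tested. It fell by 1.51 at day 3 against day 0 (adjusted p = 0.0435 by limma) and by 2.78 at day 8 against day 0, and was higher by 1.78 at day 0 than at day 16. At day 16 against day 12 its difference was 0.15 and did not pass. Neutrophil markers such as MPO and the S100A8 and S100A9 genes had no tested probe. Both stromal markers tested, LUM and DCN of 8 listed, fell at days 3, 8 and 12 against day 0, by 1.32 and 1.09 at day 3, and LUM rose at day 16 against day 12 by 1.64. Their summed level, in which DCN weighs most, ranged from 4.90 to 5.48 at day 0 and from 3.11 to 4.65 at day 3. It ranged from 3.66 to 4.32 at day 12 and from 4.18 to 5.20 at day 16. Of 20 T and NK cell markers 4 were tested, and GNLY, which encodes granulysin, a protein of cytotoxic granules, fell by 0.97 at day 3 and by 1.72 at day 8 against day 0, and was higher than at day 8 by 1.23 at day 12 and by 1.52 at day 16. CCL5 passed in these comparisons except at day 3 against day 0. GZMB, which encodes granzyme B, rose by 1.58 at day 12 against day 3, differed by 0.14 at day 8 against day 0 and by 0.94 at day 12 against day 8 without passing, and CD2 and KLRB1 passed in no comparison. The summed level of these 4 markers ranged from 1.44 to 3.47 at day 0, from 1.66 to 3.47 at day 8 and from 2.55 to 4.92 at day 12. GZMB weighs most in this sum, with a day 12 mean of 3.38 against -0.05 for GNLY, -3.10 for KLRB1 and -3.89 for CD2. The sum is thus not a level shared by the 4 markers. CD14 of the 3 monocyte markers tested, of 11, rose at day 16 against days 3 and 8 by 0.83 and 1.18. CD68 and ITGAX passed in no comparison, with differences of -0.10 and 0.02 at day 16 against day 8. The list's summed level, in which CD14 weighs most, had a median of 0.11 at day 8, 0.96 at day 12 and 0.75 at day 16, where it reached 2.37. Of the epithelial markers 2 of 9 were tested and passed in no comparison, and likewise 1 of 6 red blood cell markers. PECAM1, the 1 endothelial marker tested of 5, rose by 0.54 at day 12 against day 3, and no B cell marker was tested. The part of any cell type in the chemokine differences was not tested.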

How the data were processed

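Total RNA of 25 biopsies was isolated with Trizol and labelled with Cy3, per the labels' protocols. The deposited values are intensities from Agilent Feature Extraction 10.7.3.1, which subtracted background and spatial trends within each array, per the file headers and the submitters' processing notes. No normalization between arrays is recorded, and the deposited value table equalled the processed signal in 25 of 25 arrays. The marks for well above background and for outliers (other values) were used as deposited.

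Here log2 intensities were scaled to the 75th percentile of each array, outlier spots were set to missing and spots of a probe were averaged. This assumes that the percentile does not change with the day. The 5 arrays per day limit the precision. Probes were named by matching transcript accessions to the RefSeq gene table of assembly TB-T2T. Symbols were found for 1307 probes of 620 genes, and the 32565 probes with Ensembl names were not matched, so lists are covered in part. No genome positions or probe sequences are given, since the sources used here hold none for these arrays.

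limma 3.58.1 in R 4.3.3 fitted the day over all 25 arrays, two-sided, and the test was run on simulated data first. Python 3.11.15, pandas 2.3.3, numpy 2.4.6 and matplotlib 3.10.9 handled tables and figures. Arrays with the same number came from the same mare, per the labels, so the mare was tried as a block. Once the day means were removed, arrays of a mare correlated at a median r of 0.245 over all tested probes, against -0.046 for arrays of different mares and 0.120 for arrays of a mare on different slides. Other alternatives were quantile normalization, normexp, other filters, slide, array signal level, an intensity trend, only the 2 days compared, any probe of a gene in place of its brightest, and leaving out arrays or mares. Normexp used the median signal with marked local backgrounds replaced, since no mean signal was available. Listed genes are named where called, up to 3 per list and comparison by size, with all chemokines and receptors and the 3 genes most like each member. Some genes that this rule names are not reported here. Genes named as not called, and the per-mare values of CCL8 and IL1RN, were added after their values were seen. The members, lists and alternatives were chosen with earlier results of these data known.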

Additional observations from a re-analysis of the deposited data

Results flagged for a closer look

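In the 85 sets of 5 arrays formed by the 17 tested chemokine probes and the 5 days, 1 array stood apart from the others by Dixon's criterion. The fourth brightest probe of CCL2 had a level of -2.86 in mare 5 at day 3, against -4.25 in the nearest other mare, and this gap made up 0.72 of the range of the day. The brightest probe of CCL2 gave -3.72 on the same array. Chance alone marks about 1 set in 20, and none of the 30 sets of the brightest probes was marked.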

How the results depend on the processing

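Of the 26 called pairwise differences of the 6 genes, CXCL10 at days 3, 8 and 12 against day 0 and at day 16 against days 3 and 8 kept its direction and call in every alternative run. With mare and slide together 14 calls were lost and 1 was gained. Only the 2 days compared lost 9, normexp and the signal level of the array lost 5 each, quantile normalization 3, no filter on dim probes 2, the slide as a block 1, and an intensity trend 0. The mare as a block lost 0 and gained 3, given above. Left without the day 0 array of mare 2 and the day 3 array of mare 4, 2 calls were lost. The stricter filter left CXCL8 untested. No called difference changed direction in a model. Without mare 1 or mare 2 altogether, 10 calls each were lost, and 5 or 6 without one of the others. CXCL6, CXCL8 and CXCL10 at days 8 and 12 against day 0, CXCL10 at day 3 against day 0 and at day 16 against days 3 and 8, CCL2 at day 16 against days 3, 8 and 12, and CCL5 at day 8 against day 0 kept their calls without any mare. Within slides, CXCL8 gave -0.67 on slide 5 and CCL2 -0.42 on slide 3 at day 16 against day 8.

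For day 3 against day 0 the main count of 4 genes was 1 with mare and slide together and 1 to 5 with a replicate left out. The 1 gene of day 12 against day 8 became 0 with normexp, no filter, the slide as a block, mare and slide, signal level or only the 2 days compared, 0 without any one mare, and 0 or 1 with a replicate left out. For day 16 against day 12, 3 genes became 1 with only the 2 days compared. For day 0 against day 16 the count of 1 became 2 with normexp, no filter, the mare as a replicate block or the slide as a block, 0 with quantile normalization, mare and slide, signal level, only the 2 days compared or without the 2 arrays named above, and 0 to 2 with a replicate left out. Over the 5 other pairs 17 calls became 8 with mare and slide. Causes were not tested. Quantile normalization moved the median of all probes at day 3 against day 0 from -0.11 to 0.00 and its split of higher and lower calls from 2509 and 2024 to 3231 and 1739, and that of day 0 against day 16 from 822 and 861 to 547 and 943. CXCL8, and CXCL6 from day 3 to day 12, are limited by signal near background.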

Other observations

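The biopsy of mare 4 at day 16 stood out for IL1RN, the interleukin 1 receptor antagonist, a pattern noticed in the data. All 9 probes of IL1RN lay 7.96 to 8.57 log2 units above their median of the other 24 arrays on that array, and the excess of the brightest was larger than that of 99.96% of tested probes. On the same array the excess was 3.30 for CCL2 and 2.10 for CXCL10, but 0.38 for CXCL9 and 0.16 for CCL5. CXCL8 reached -2.96 there and at most -5.13 on the other arrays, and CXCL6 reached -1.59 and at most -2.50. All 6 probes of CCL2, all 6 of CXCL8 and the 1 of CXCL6 were brightest there among the 25 arrays. MMP9 was highest in this mare among the day 16 arrays, at -3.34 against -5.27 to -4.63 in the other mares, and so was CD14, at 2.32 against 0.42 to 1.31. Mare 5 at day 16 shared the high IL1RN (2.29) and CCL2 (-1.88) but had CXCL6 and CXCL8 at background. The array of mare 4 also had the highest 75th percentile of the series, and its part in these values was not tested.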
